A study of Mus musculus with 22 samples.

Results

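The genes described here are those of serum amyloid A and of other proteins of the acute-phase response: Saa1, Saa2, Saa3, Lcn2, Hp, Orm1 and Orm2. They were taken by their symbols, with earlier results of these data known, and all 7 were found among the 23420 gene symbols of the count table. RNA had been sequenced from inguinal white adipose tissue (IWAT) of female wildtype C57Bl/6 mice fed chow (lean) or a high fat diet (HFD, obese) for 16 weeks. At about 20 weeks of age, cells of the E0771 breast cancer line, which derives from a C57Bl/6 mouse, were injected with PBS and Matrigel into the left fat pad, while the right pad of the same animal received PBS and Matrigel only. Pads were taken 2 weeks later, after the lymph node had been cut out and the sheet of fat that covered the tumor had been discarded. This gave 5 lean control, 5 lean tumor-associated, 6 obese control and 6 obese tumor-associated libraries, 22 in all, a pair from each of 5 lean and 6 obese mice. All 4 groups thus carried Matrigel, and the control pads came from animals with a tumor on the other side, so that no pad of a tumor-free mouse was compared.

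The acute-phase response is the change in secreted proteins that follows infection, injury or a tumor. Interleukin-6 type cytokines act through STAT3, and interleukin-1 and TNF through NF-kB and C/EBP factors, to raise these genes in the liver and, for some of them, in other tissues. Serum amyloid A proteins are apolipoproteins that bind high-density lipoprotein, Saa1 and Saa2 being the main liver forms in mice and Saa3 a form made outside the liver, in macrophages and adipocytes among other cells. Lcn2 encodes lipocalin 2, which withholds iron from bacteria by binding their siderophores and is made by neutrophils, epithelia and fat. Hp encodes haptoglobin, the plasma protein that captures free hemoglobin and which adipocytes also make. Orm1 and Orm2 encode orosomucoids, or alpha-1-acid glycoproteins, abundant carrier proteins of plasma.

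The 3 serum amyloid A genes lie in 1 cluster on chromosome 7 of the mm10 (GRCm38) genome, Saa3 from 46711998 to 46715700 on the minus strand, Saa1 from 46740497 to 46742980 on the minus strand and Saa2 from 46751790 to 46754313 on the plus strand. Orm1 (63344560 to 63348163) and Orm2 (63362449 to 63365878) lie on the plus strand of chromosome 4, Lcn2 lies on chromosome 2 from 32384633 to 32388252 and Hp on chromosome 8 from 109575128 to 109579172, both on the minus strand. All 7 are protein-coding, and none overlaps another annotated gene. Because reads that match several places were not counted, sequence shared between copies bears on how well each gene could be counted. The first 150 coding bases of Saa1, Saa2 and Saa3 are shown for this reason, with capitals where a base differs from Saa1, which is the case at 11 positions in Saa2 and at 49 in Saa3:
Saa1: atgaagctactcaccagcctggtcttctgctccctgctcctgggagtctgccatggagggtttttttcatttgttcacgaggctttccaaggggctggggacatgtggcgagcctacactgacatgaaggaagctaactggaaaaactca
Saa2: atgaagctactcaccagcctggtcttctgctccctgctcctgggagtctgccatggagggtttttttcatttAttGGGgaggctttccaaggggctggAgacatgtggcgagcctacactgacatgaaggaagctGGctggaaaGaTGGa
Saa3: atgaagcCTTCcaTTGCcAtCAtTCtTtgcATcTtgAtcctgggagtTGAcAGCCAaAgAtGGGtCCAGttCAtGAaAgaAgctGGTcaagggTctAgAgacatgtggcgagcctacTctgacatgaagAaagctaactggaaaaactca

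Over the whole coding sequence Saa1 and Saa2 were identical at 95.12% of aligned bases, and Saa1 and Saa3 at 74.73%. Of the runs of 50 bases in the transcript, 14.82% in Saa1 and 9.12% in Saa2 occurred in another gene as well, against 1.78% in Saa3. Orm1 and Orm2 were identical at 89.9% of coding bases, with 20.39% and 22.73% of such runs shared. No run of Lcn2 or Hp was shared. Counts of Saa1, Saa2, Orm1 and Orm2 are therefore less certain than those of Saa3, Lcn2 and Hp, since reads on shared stretches were lost or could have been split.

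The pair Saa1 and Saa2 were also alike upstream, at 94.47% of aligned bases, whereas Saa1 and Saa3 were identical at 94 of 188 aligned bases. These windows, from 250 to 51 bases before the RefSeq start on GRCm38.p6, are printed to show how alike they are, and their bearing on the counts was not tested. They lie at chr7:46743031-46743230 (minus strand), chr7:46751583-46751782 (plus) and chr7:46715727-46715926 (minus), and capitals mark matches to the C/EBP motif TTGNGNAA on either strand:
Saa1: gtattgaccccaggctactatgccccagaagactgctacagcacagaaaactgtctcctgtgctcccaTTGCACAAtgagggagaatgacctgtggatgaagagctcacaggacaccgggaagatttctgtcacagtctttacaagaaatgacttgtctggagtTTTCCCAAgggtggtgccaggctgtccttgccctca
Saa2: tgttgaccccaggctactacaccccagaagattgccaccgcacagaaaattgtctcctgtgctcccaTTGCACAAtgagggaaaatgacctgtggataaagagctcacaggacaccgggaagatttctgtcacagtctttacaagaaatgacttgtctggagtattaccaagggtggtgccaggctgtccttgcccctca
Saa3: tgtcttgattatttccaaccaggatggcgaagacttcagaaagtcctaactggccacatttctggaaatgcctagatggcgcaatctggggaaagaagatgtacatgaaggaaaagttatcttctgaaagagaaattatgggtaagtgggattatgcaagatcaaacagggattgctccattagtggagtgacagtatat
The motif matched at 2 places in Saa1, at 1 in Saa2 and nowhere in the Saa3 window, and 9.95% of 32851 such windows of the genome hold it. Such a match describes letters only.

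Between 5759775 and 8598108 counts fell on genes in a library. Markers of other tissues were summed in every library. The 12 hepatocyte markers, led by Alb with a mean of 889 counts per 1000000 (CPM), were all detected, and their summed level ran from 150 to 4525 CPM; it exceeded 2000 CPM in 9 libraries (mice 0 and 9 of lean control, 3 and 9 of lean tumor-associated, 1 and 2 of obese control and 1, 2 and 3 of obese tumor-associated IWAT), and none of the 12 was called in any comparison. Most of these genes are not expected of fat, and the 9 libraries belonged to all 4 groups. Cyp2e1, 1 of the 12, had at least 116 CPM in every lean tumor-associated library, where the lowest sum was 150 CPM. Lymphocyte markers were high in obese control libraries 1 (670 CPM) and 3 (603 CPM), against at most 158 CPM elsewhere, and skeletal muscle markers reached 1977 CPM in obese control library 1. Adipocyte markers were lowest in obese tumor-associated libraries 4 (1917 CPM) and 0 (3211 CPM). In bulk tissue, fewer cells of a type and less RNA per cell cannot be told apart.

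The levels of the 7 genes covered 3 orders of magnitude. Per kilobase of transcript, averaged over the 22 libraries, the order was Hp (747 CPM per kb), Orm1 (94.5), Lcn2 (57.3), Saa3 (9.24), Saa1 (1.04), Orm2 (0.634) and Saa2 (0.428). Hp was above Orm1 in 22 of 22 libraries, and Saa3 was above Saa1 in 21. Orm1 was above Lcn2 in all 12 obese libraries but in only 2 of 5 lean tumor-associated libraries, and Lcn2 was above Saa3 in 18 of 22, with obese tumor-associated IWAT holding the 4 exceptions. Saa1 exceeded Orm2 in 12 libraries and Orm2 exceeded Saa2 in 11. By group, Saa1 was above Orm2 in 6 of 6 obese tumor-associated libraries but in 1 of 5 of each lean group, and Orm2 was above Saa2 in 4 of 5 of each lean group but in 1 of 6 obese tumor-associated libraries. The median of the summed level of the 7 genes went from 399 to 919 CPM per kb between control and tumor-associated pads of lean mice and from 859 to 1269 CPM per kb in obese mice. The share of Hp in this sum ran from 42.4% to 67.4% in lean control and from 88.9% to 95.2% in obese tumor-associated IWAT, with no overlap.

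**Figure D1:**
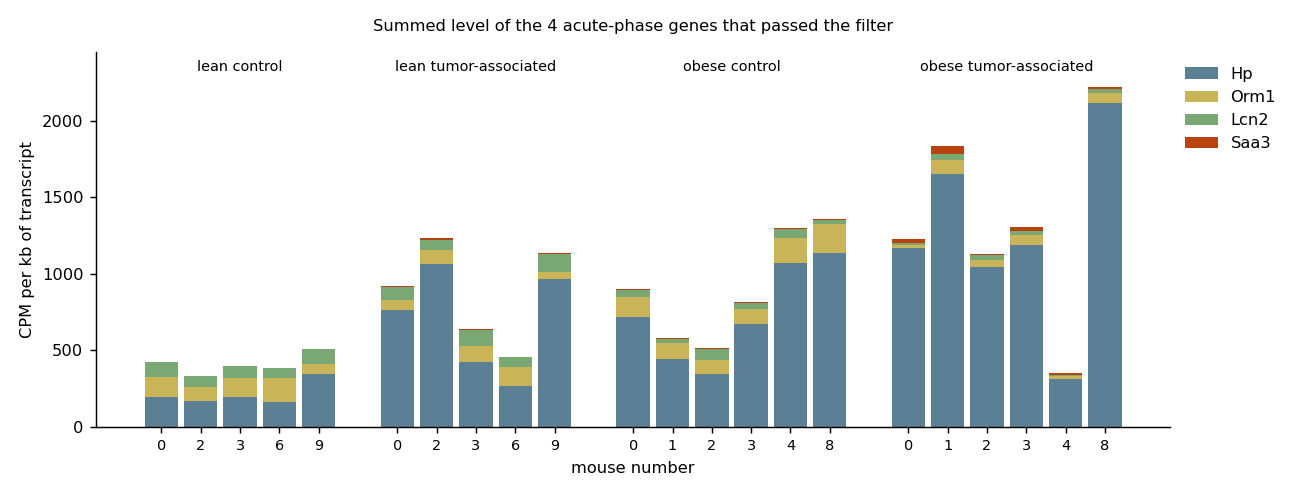
Stacked level of Hp, Orm1, Lcn2 and Saa3, in CPM per kb of transcript, in each of the 22 libraries, named on the x axis by mouse number within its group. Haptoglobin makes up the largest part of every bar, and obese tumor-associated library 4 falls to 353 CPM per kb for the 7 genes together, near the lean control libraries.

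Of the 7 genes, Saa3, Lcn2, Hp and Orm1 passed the filter on low counts and were tested with edgeR together with 14458 genes in all; Saa1, Saa2 and Orm2 had too few counts. Beside the tumor in lean mice, 1 of the 4 rose (Hp) and none fell, where 3.27% of all genes rose and 0.913% fell. Beside the tumor in obese mice, 1 rose (Saa3) and 2 fell (Lcn2 and Orm1), where 26.8% of all genes rose and 27.7% fell. Between control pads, 2 were higher in obese mice (Hp and Saa3) and none was lower, against 9.54% and 7.53% of all genes. Between tumor-associated pads, Saa3 was higher and Lcn2 lower in obese mice, against 24.7% and 22.4% of all genes. The change with the tumor differed between obese and lean mice for none of the 4, where 4.92% of all genes differed by the same edgeR test; 1 of the 4 (Lcn2) had an unadjusted p under 0.05, and DESeq2 called none. In obese mice, calls in each direction were so common among all genes that 1 or 2 of 4 is close to the background. The comparisons with a shared group of libraries are not independent of each other.

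**Figure D2:**
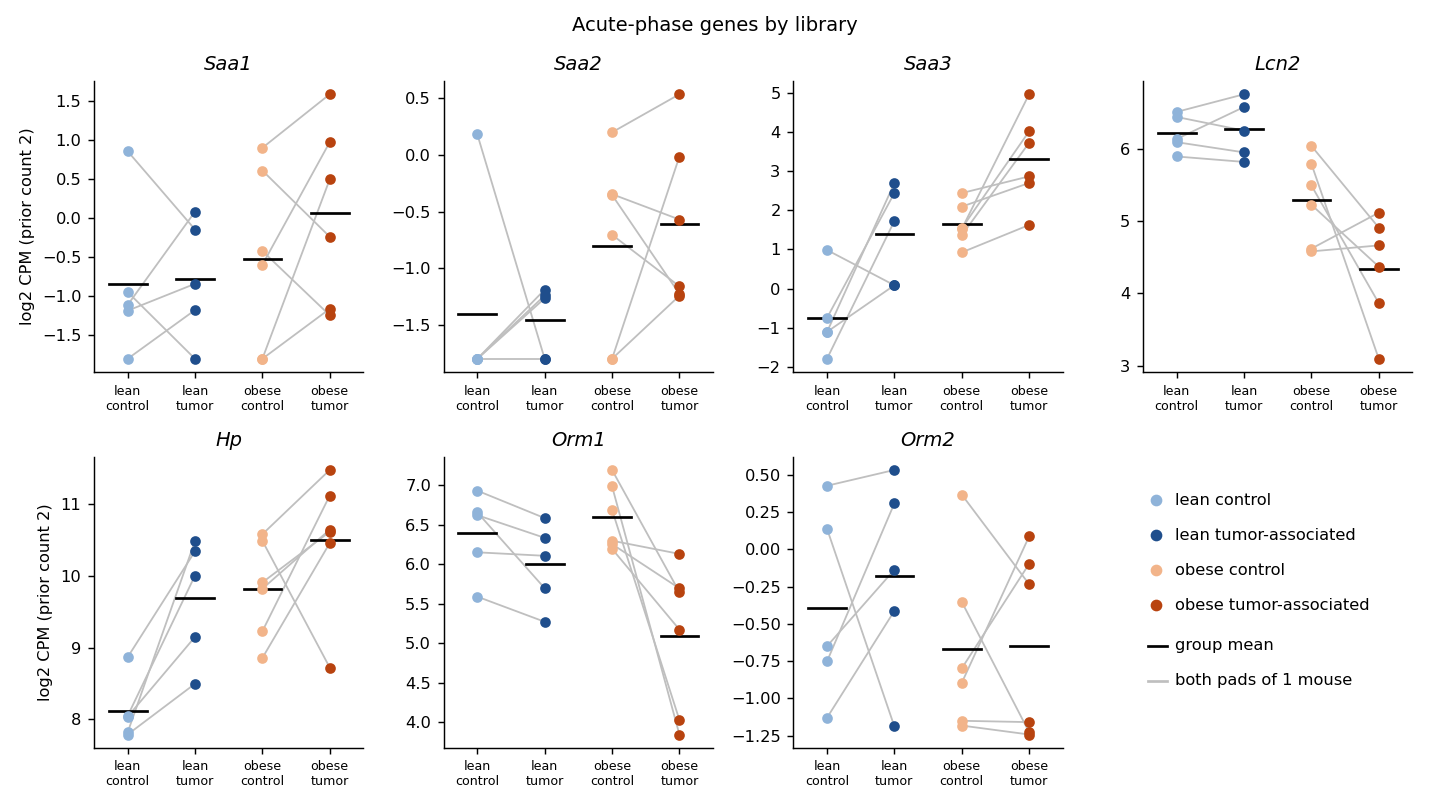
The log2 CPM of each gene in each library, by group, with grey lines that join both pads of a mouse and black bars at the group mean; each panel has its own scale. Saa3 lines rise in all obese mice, Orm1 lines fall in all mice of both diets, and Saa1, Saa2 and Orm2 show no common direction.

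Saa3 was higher beside the tumor in obese mice and higher in obese than in lean pads, at low levels. In lean control pads the counts were 0, 1, 2, 1 and 10 in mice 0, 2, 3, 6 and 9, and in lean tumor-associated pads of the same mice 20, 40, 38, 6 and 5. In 4 pairs the tumor-associated pad was thus higher, by 1.19 to 3.81 on the log2 scale, and the pair of mouse 9 went from 1.70 to 0.772 CPM. In obese control pads Saa3 had 1.61, 2.60 and 5.16 CPM (lowest, median, highest of 6), and in obese tumor-associated pads 2.80, 10.01 and 31.2 CPM. It was higher beside the tumor in 6 of 6 obese mice, from 1.36-fold in mouse 8 to 12.1-fold in mouse 1, and 5 of the 6 tumor-associated libraries lay above all obese control libraries.

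The fitted change of Saa3 with the tumor in obese mice was 4.17-fold (log2 2.06, SE 0.61, adjusted p = 0.00785). In lean mice it was 6.88-fold (log2 2.78, SE 0.83) and missed the threshold (adjusted p = 0.0624). Without lean control library 9 it was 4.22 on the log2 scale (adjusted p = 0.0160), and DESeq2 called it (adjusted p = 0.00977). So did the fits without lean tumor-associated library 6 (0.0328) or 9 (0.0479) or obese tumor-associated library 1 (0.0499) or 4 (0.0497). In all, 5 of the 22 fits with 1 library left out called it, and the adjusted p reached 0.221. With the mouse as a replicate block the change was 2.77 and was not called (adjusted p = 0.118). The obese minus lean difference was -0.72 (SE 0.99, adjusted p = 0.632), with an interval of 1.96 SE on either side from -2.67 to 1.23. It ran from -2.16 (without lean control library 9) to -0.34 with 1 library left out and was -2.47 (adjusted p = 0.115) without the 9 libraries rich in hepatocyte markers. Between diets, Saa3 was 6.56-fold higher in obese than in lean control pads (log2 2.71, SE 0.81, adjusted p = 0.0253) and 3.98-fold higher in obese tumor-associated pads (log2 1.99, SE 0.65, adjusted p = 0.0162). The former call was lost without lean control library 0, 2, 3 or 6 or obese control library 8 (adjusted p from 0.0506 to 0.0669), and with 1 library left out the change ran from 2.33 to 4.15, the latter without lean control library 9. With the 9 libraries rich in hepatocyte markers left out, the obese tumor change fell to 1.30 (adjusted p = 0.0583) and the diet difference beside the tumor to 1.40 (adjusted p = 0.0749), while that between control pads was 3.87 (adjusted p = 0.0156). Saa3 itself had a median of 2.59 CPM in those 9 libraries and 3.03 CPM in the other 13.

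The liver forms Saa1 and Saa2 were close to the limit of detection. Saa1 had 101 counts over all 22 libraries, from 0 to 21 each, and Saa2 had 44, from 0 to 9. In lean mice Saa1 had 2, 0, 1, 1 and 9 counts in the control pads of mice 0, 2, 3, 6 and 9 and 0, 1, 2, 6 and 4 in the tumor-associated pads. Saa2 was at 0 in 4 of the 5 lean control pads, with 5 counts in mouse 9, and had 0 or 1 count in every lean tumor-associated pad. A count of 0 allows up to 3 counts, or 0.349 to 0.521 CPM depending on the library, and covers counting error only. In obese control pads the counts ran from 0 to 11 for Saa1 and from 0 to 6 for Saa2, and beside the tumor from 1 to 21 and from 1 to 9, and the groups overlapped.

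Without a filter, Saa1 differed between obese tumor-associated and control pads by 0.78 on the log2 scale (1.96 SE interval -0.82 to 2.38, adjusted p = 0.466). Saa2 differed by 0.29 (-1.29 to 1.86, adjusted p = 0.823). Both intervals span falls and rises, and neither gene was called. Neither was called in any other comparison, the smallest adjusted p being 0.111 for Saa2 between obese and lean tumor-associated pads. The counts stood with the hepatocyte markers: the 9 of 22 libraries with over 2000 CPM of these held 75.2% of all Saa1 counts (76 of 101) and 65.9% of the Saa2 counts (29 of 44). The median count in these 9 and in the other 13 was 9 and 1 for Saa1, and 3 and 1 for Saa2. The highest Saa1 and Saa2 counts, 21 and 9, were those of obese tumor-associated library 1, which also had the highest hepatocyte marker sum. In the same way 81.6% of the counts of Saa4, a serum amyloid A gene that the liver expresses constitutively, fell in those 9 libraries. For Saa3 the share was 57.7%, of which obese tumor-associated library 1 gave 241 of 469 counts. The part of such reads in the Saa1 and Saa2 values was not tested.

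Hp was the most abundant of the 7 genes and rose beside the tumor in lean mice. The lean control pads had 265, 225, 263, 221 and 467 CPM in mice 0, 2, 3, 6 and 9, and the tumor-associated pads of the same mice 1027, 1434, 568, 361 and 1299 CPM. It was higher beside the tumor in 5 of 5 lean mice, by 1.63- to 6.36-fold, and 4 of the 5 libraries lay above all lean control libraries. Obese control pads had 463, 933 and 1530 CPM (lowest, median, highest) and obese tumor-associated pads 422, 1584 and 2849 CPM. In obese mice 5 of 6 pairs rose, by 1.63- to 3.71-fold, and mouse 4 went the other way, from 1437 to 422 CPM.

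In lean mice Hp rose 3.26-fold with the tumor (log2 1.70, SE 0.44, adjusted p = 0.0302). The call was lost with the mouse as a replicate block (log2 1.58, adjusted p = 0.0606), without the 9 libraries rich in hepatocyte markers (log2 1.97, adjusted p = 0.153, 3 libraries in each lean group) and in 7 of the 22 fits with 1 library left out, those without lean control library 0, 2, 3 or 6 or lean tumor-associated library 0, 2 or 9 (adjusted p from 0.0623 to 0.125, log2 change at least 1.48). In obese mice the fitted change was 1.71-fold (log2 0.77, SE 0.39, adjusted p = 0.0970), and it was called without obese tumor-associated library 4 (log2 0.95, adjusted p = 0.0274). Hp was 3.41-fold higher in obese than in lean control pads (log2 1.77, SE 0.42, adjusted p = 0.00708), with 5 of 6 obese libraries above all lean ones, and this call held in all 22 fits with 1 library left out. Beside the tumor the diets differed by 0.84 (SE 0.41, adjusted p = 0.0984), again called without obese tumor-associated library 4 (log2 1.04, adjusted p = 0.0269). The obese minus lean difference of the tumor change was -0.93 (SE 0.57, adjusted p = 0.256). Over all groups together, Hp had a median of 599 CPM in the 9 libraries rich in hepatocyte markers and 961 CPM in the other 13. The library with the lowest hepatocyte marker sum, lean tumor-associated library 2, had 1434 CPM of Hp. With the sum as a covariate the lean change was 1.69 (adjusted p = 0.0348). The part of hepatocyte RNA in the Hp values was not tested.

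Beside the tumor, Lcn2 was lower in obese than in lean mice. The lean control pads had 86.5, 67.9, 70.0, 59.1 and 90.9 CPM in mice 0, 2, 3, 6 and 9, and the lean tumor-associated pads 75.9, 61.5, 95.2, 56.1 and 108 CPM. The obese control pads had 23.6, 40.9 and 65.5 CPM (lowest, median, highest), and the obese tumor-associated pads 8.25, 22.7 and 34.4 CPM. All 6 obese tumor-associated libraries lay below every lean tumor-associated library, and 5 of 6 obese control libraries lay below every lean control library. How many of all genes lie apart in this way was not counted, and 22.4% of all genes were called lower between tumor-associated pads. Beside the tumor Lcn2 was 3.60-fold lower in obese mice (log2 -1.85, SE 0.31, adjusted p = 0.000106), a call that held in all 22 fits with 1 library left out. Between control pads it was 1.79-fold lower (log2 -0.84, SE 0.30) and missed the threshold (adjusted p = 0.0565). DESeq2 (0.0343), upper-quartile scaling (0.0493), the fit to those groups alone (0.0323) and the hepatocyte covariate (0.0192) called it. So did the fits without obese control library 2 (0.0257) or 4 (0.0475) or obese tumor-associated library 1 (0.0436) or 4 (0.0212). In all, 4 of the 22 fits with 1 library left out called it, and the adjusted p reached 0.116. It was called without obese tumor-associated libraries 0 and 4 (-0.85, adjusted p = 0.0152). The call was absent without obese control libraries 1 and 3 (-0.67, adjusted p = 0.199) or without the libraries rich in hepatocyte markers (-0.71, adjusted p = 0.214).

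With the tumor, Lcn2 fell 1.89-fold in obese mice (log2 -0.92, SE 0.29, adjusted p = 0.0122). It was lower in 4 of 6 pairs, with differences from -0.86 to -2.70 on the log2 scale, the latter in mouse 4, and higher in mice 1 (0.50) and 8 (0.08). Without obese tumor-associated libraries 0 and 4, which held the fewest adipocyte markers, the change was -0.63 and was no longer called (adjusted p = 0.0650). In lean mice the change was 0.08 (SE 0.31, interval -0.53 to 0.69, adjusted p = 0.986), with 2 of 5 pairs higher, and its sign turned without lean tumor-associated library 9 (-0.07) and without the libraries rich in hepatocyte markers (-0.04). The difference between the diets in this change was -1.0 (SE 0.43, adjusted p = 0.113). It was called with the hepatocyte covariate (-1.12, adjusted p = 0.0410) or without obese tumor-associated library 1 (-1.17, adjusted p = 0.0485). The latter was the only call, 1 of 22, in the fits with 1 library left out. With the mouse as a replicate block the adjusted p was 0.158. Without obese tumor-associated libraries 0 and 4 the difference was -0.70 (adjusted p = 0.254). Lcn2 is known as a gene of neutrophil granules, and of the 12 neutrophil markers found, 4 had enough counts to be tested. S100a8 had at most 5.44 CPM, Mpo at most 3 counts and Camp at most 4 in any library. Csf3r, the receptor for the granulocyte growth factor, averaged 10.9 CPM and rose with the tumor in lean (log2 1.34, adjusted p = 0.00857) and obese mice (1.60, adjusted p = 6.31e-05), and Mmp9 averaged 11.6 CPM and was not called with the tumor. Ltf, the marker of that list with the highest mean (163 CPM), is also a gene of mammary epithelium. Between tumor-associated pads, Mmp9 (log2 -1.33, adjusted p = 0.000379) and Ltf (-1.97, adjusted p = 0.000891) were lower in obese mice. Between control pads Mmp9 (-1.10, adjusted p = 0.00538) and Ltf (-1.27, adjusted p = 0.0400) were lower in obese mice as well. Csf3r and S100a8 were not called in either comparison of the diets. The part of neutrophils in the Lcn2 values was not tested.

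Orm1 fell beside the tumor in obese mice. The lean control pads had 100, 70.7, 98.0, 122 and 47.8 CPM in mice 0, 2, 3, 6 and 9 and the lean tumor-associated pads 51.5, 68.5, 80.3, 95.5 and 38.3 CPM. Obese control pads had 72.9, 90.5 and 146 CPM (lowest, median, highest), and obese tumor-associated pads 14.1, 42.8 and 69.7 CPM, with no overlap between these groups. How many of all genes show no overlap there was not counted, and 27.7% of all genes were called lower in that comparison. The tumor-associated pad was lower in 5 of 5 lean mice, with log2 differences from -0.04 to -0.96, and in 6 of 6 obese mice, from -0.17 to -3.14. The change was 2.54-fold down in obese mice (log2 -1.34, SE 0.34, adjusted p = 0.00260), called in all 22 fits with 1 library left out, without libraries 0 and 4 (log2 -0.98, adjusted p = 0.0110) and without the libraries rich in hepatocyte markers (log2 -2.09, adjusted p = 0.00264). In lean mice it was -0.39 (SE 0.36, adjusted p = 0.749), and the difference between the diets was -0.95 (SE 0.49, adjusted p = 0.181). Control pads of the diets differed by 0.19 (SE 0.35, interval -0.49 to 0.87, adjusted p = 0.756). Tumor-associated pads differed by -0.76 (SE 0.35, adjusted p = 0.0795), called without lean tumor-associated library 9 (-0.91, adjusted p = 0.0491), without obese tumor-associated library 1 (-1.0, adjusted p = 0.0220) or without the libraries rich in hepatocyte markers (-1.43, adjusted p = 0.0258). Without obese tumor-associated libraries 0 and 4 that difference was -0.38 (adjusted p = 0.325).

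Orm2 had 1 to 9 counts in each library and 77 in all, where Orm1 had 11207, and group means lay between 0.392 and 0.669 CPM. Without a filter its change was 0.29 in lean mice (interval -0.88 to 1.46, adjusted p = 0.967) and 0.05 in obese mice (-1.09 to 1.18, adjusted p = 1.0). Orm3, another orosomucoid gene, had 1 to 36 counts, and was 2.74-fold lower in obese than in lean control pads (log2 -1.45, SE 0.48, adjusted p = 0.0410). The orosomucoid of these pads was thus nearly all Orm1, with the limit that reads on shared stretches were not counted.

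**Figure D3:**
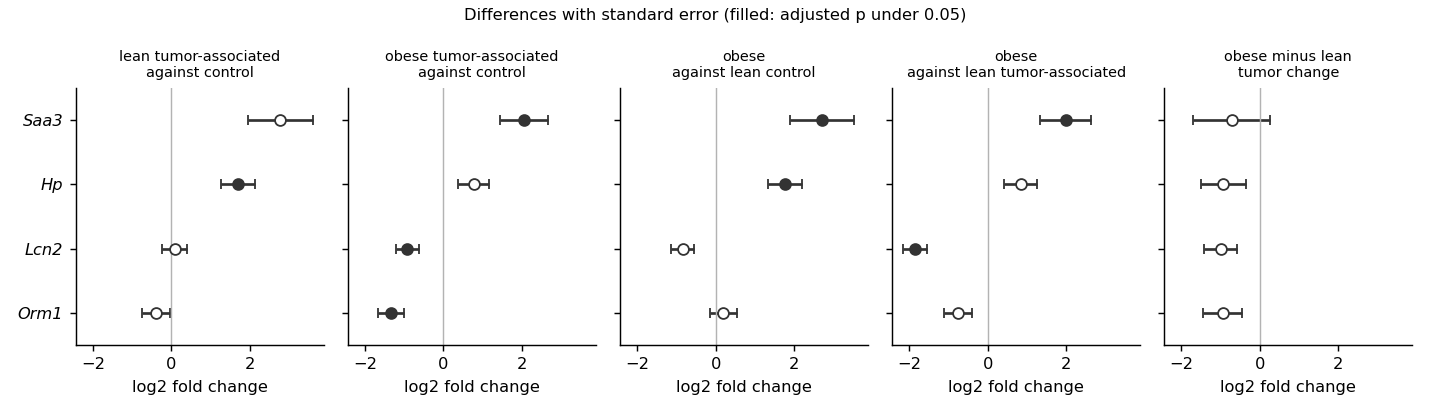
Fitted log2 fold change of the 4 tested genes in 5 comparisons, with bars of 1 SE; filled points have an adjusted p under 0.05. Saa3 and Hp lie to the right of 0 in the first 4 panels, Lcn2 and Orm1 to the left in the obese tumor comparison, and all 4 points of the difference lie to the left with no call.

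Markers of several cell types differed between the groups as well. The median of the summed macrophage markers was 1284 CPM in control and 2818 CPM in tumor-associated pads of lean mice, and 1596 and 4753 CPM in those of obese mice. Of the 13, 7 rose with the tumor in lean mice, where 3.27% of all genes rose, and 9 in obese mice, where 26.8% rose. Saa3 per 1000 CPM of these markers had medians of 0.208 and 0.910 (lean control and tumor-associated) and of 1.55 and 3.0 (obese control and tumor-associated), so it varied more than the marker sum. Mammary epithelium markers fell with the tumor in obese mice for 6 of 7 tested, where 27.7% of all genes fell. All 7 were lower in obese than in lean tumor-associated pads, against 22.4% of all genes, and Wap was at most 1 count in any library. Lcn2 per 1000 CPM of these markers had similar medians in the 4 groups, 54.5, 53.5, 58.2 and 71.0 in the order above, and all groups overlapped, lean control spanning 49.8 to 93.1 and obese tumor-associated IWAT 34.2 to 90.2. Adipocyte markers fell with the tumor in obese mice for 10 of 11, beside the same 27.7% of all genes. Orm1 per 1000 CPM of adipocyte markers had medians of 5.97, 7.43, 5.65 and 5.31, and ran from 3.21 to 8.92 in lean control, 2.78 to 11.5 in lean tumor-associated, 4.27 to 6.05 in obese control and 4.80 to 7.34 in obese tumor-associated libraries. Hp per 1000 CPM of adipocyte markers had medians of 18.1, 94.3, 54.2 and 205. Genes of germline and embryonic type, a list picked in an earlier look at these values, summed to 40.1 to 999.7 CPM in obese tumor-associated pads, 5.99 to 85.7 CPM in obese control pads and at most 9.09 CPM in lean ones. All 10 were called higher with the tumor in obese mice, where 26.8% of all genes rose. Between control pads 7 of them were higher in obese mice, against 9.54% of all genes. The sum of this list was highest in obese tumor-associated library 4, where Hp, Lcn2 and Orm1 had the lowest values of that group. The part of these cell types in the differences was not tested.

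**Figure D4:**
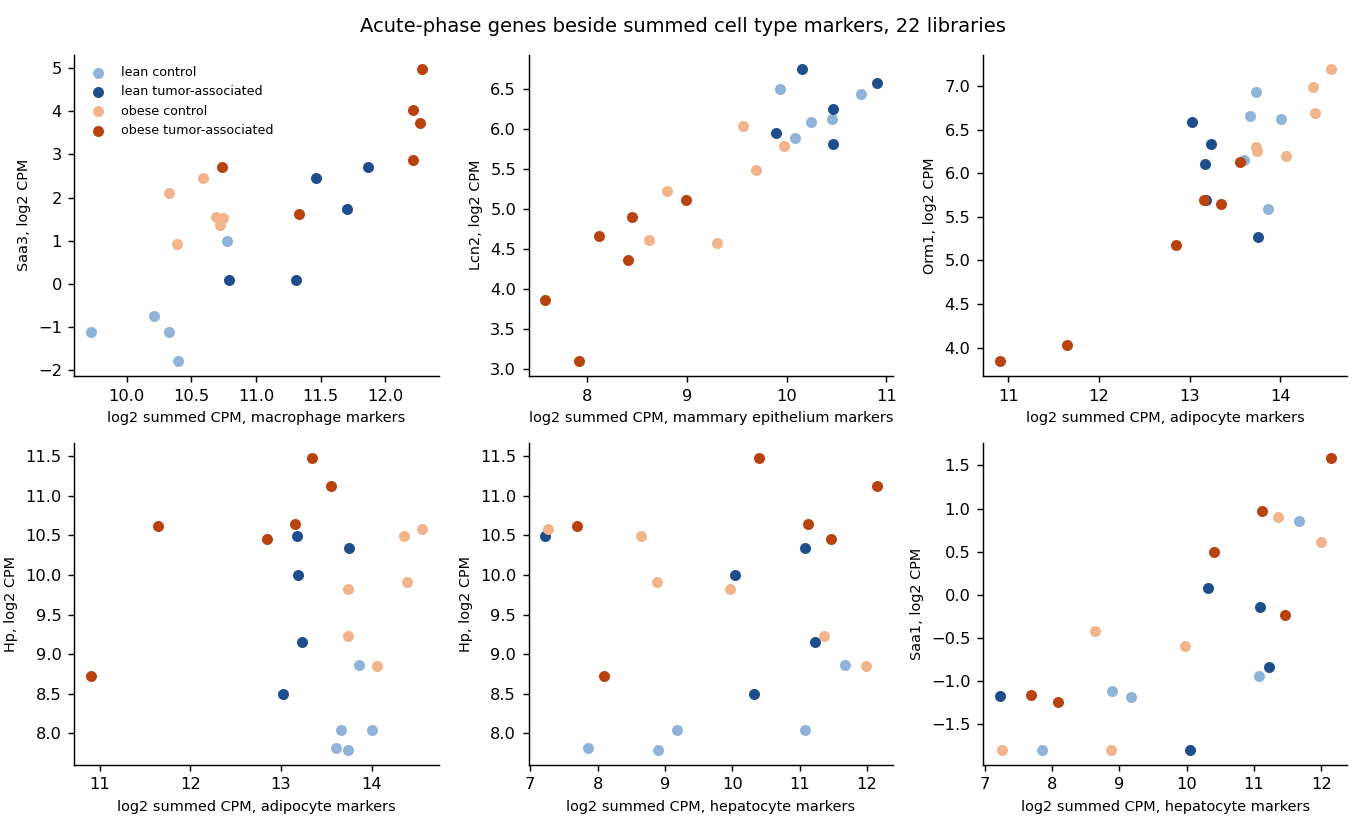
Each panel sets the log2 CPM of a gene against the log2 summed CPM of a marker list in the 22 libraries, coloured by group. Lcn2 and the mammary epithelium markers, and Orm1 and the adipocyte markers, have their lowest values in obese tumor-associated libraries 0 and 4, while among lean tumor-associated libraries Orm1 is highest (95.5 CPM) at the lowest adipocyte marker sum (8339 CPM).

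The genes whose pattern over the 22 libraries was most like each of the 4 were listed by Pearson r of log2 CPM among 14493 genes with a mean of at least 1 CPM, as a description across libraries that share depth and tissue makeup. For Saa3 they were Tlr13 (r = 0.916, and 0.744 after centring each group), Cd68 (0.914 and 0.670) and Hk3 (0.895 and 0.675), of which Cd68 is a macrophage lysosome gene and Tlr13 an endosomal receptor for bacterial RNA. For Lcn2 they were Gna14 (0.970 and 0.894), Itga8 (0.963 and 0.915) and Elf5 (0.963 and 0.883), the last a transcription factor of mammary alveolar cells. For Hp they were Serpina3n (0.918 and 0.905), itself an acute-phase protease inhibitor, Sec24d (0.915 and 0.791), a coat protein of vesicles that leave the endoplasmic reticulum, and the amino acid transporter Slc7a8 (0.914 and 0.805). For Orm1 they were Paqr9 (0.965 and 0.948), Cryab (0.958 and 0.917), which encodes a small heat shock protein, and Ankrd40 (0.958 and 0.914). Among the 4 themselves the closest pair was Saa3 and Hp (0.800, and 0.456 after centring), and Saa3 and Lcn2 ran in opposite order (-0.596, and 0.022 after centring).

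Of 25 other acute-phase proteins tested, 3 rose with the tumor in lean mice, where 3.27% of all genes rose, and 4 in obese mice, where 26.8% rose; none fell, against 0.913% and 27.7% of all genes; their median log2 change was 0.15 and 0.32, beside 0.01 and -0.02 over all genes. Mt2, a zinc-binding metallothionein, rose in both (log2 1.75, SE 0.42 in lean, adjusted p = 0.0225; 1.61 in obese, adjusted p = 0.00139). Serpina3n rose in lean mice (1.31, adjusted p = 0.0393; 0.17 in obese, adjusted p = 0.681), from 103 ± 26.1 (SD, n = 5) to 256 ± 108 (n = 5) CPM, while obese pads had 251 ± 73.8 (n = 6) CPM without and 281 ± 118 (n = 6) CPM with the tumor. Its obese minus lean difference was -1.15 and not called (adjusted p = 0.104). Complement factor B, Cfb, was the other gene called in lean mice (0.93, adjusted p = 0.0267). Il1rn, the interleukin-1 receptor antagonist, rose in obese mice (1.74, adjusted p = 0.000320) and was higher in obese than lean control pads (2.75, adjusted p = 0.000162). Ptx3, a long pentraxin (1.48, adjusted p = 0.00469), and Mt1 (1.14, adjusted p = 0.00141) were the other calls in obese mice. C3, the most abundant of the list at 1280 CPM on average, had changes of 0.23 and -0.35 and no call with the tumor, and was lower in obese than in lean tumor-associated pads (-1.26, adjusted p = 0.00775). The fibrinogen genes Fga, Fgb and Fgg, which hepatocytes make, changed by 0.03 to 0.34 with no call, at SE of 0.78 to 1.1. Fga ran from 0.155 to 166 CPM between libraries. Crp, Hpx, Serpina3k, Serpina1b and Itih4 had SE of 0.87 to 1.0 in obese mice. Only large changes of such genes could be called, so the absence of calls says little about them.

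Of 9 negative acute-phase proteins, whose level falls in plasma during the response, 2 fell with the tumor in obese mice, where 27.7% of all genes fell. They were Trf (log2 -0.90, adjusted p = 0.0245) and Rbp4 (-0.94, adjusted p = 0.0177). None was called in lean mice, where 0.913% of all genes fell. Rbp4 had 190 ± 42.3 (SD, n = 5) CPM in lean control and 123 ± 29.0 (n = 5) CPM in lean tumor-associated pads (log2 -0.62, adjusted p = 0.416). Trf and Rbp4 are also made by adipocytes. Alb changed by 0.45 in obese mice (SE 0.95, adjusted p = 0.711), with 24.4 to 2664 CPM between libraries. Alb, Ttr, Apoa2 and Ahsg, also among the hepatocyte markers, had SE of 0.93 to 1.0 there, so only large changes could be called.

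The cytokines that induce these genes had few counts. Of 10, 6 were tested, and Il6 (1.14 CPM on average), Il1a, Il11 and Il22 (0 counts) did not pass the filter. In obese mice Il1b rose (log2 3.41, SE 0.50, adjusted p = 3.41e-05), from 1.06 ± 0.842 (SD, n = 6) to 11.6 ± 7.58 (n = 6) CPM, and so did Osm, the gene of oncostatin M (1.85, adjusted p = 0.00601), while Ctf1, cardiotrophin 1, fell (-1.17, adjusted p = 0.00148). Thus 2 of the 6 rose and 1 fell in obese mice, where 26.8% of all genes rose and 27.7% fell. No cytokine was called in lean mice, where 3.27% of all genes rose and 0.913% fell. Il1b differed by 1.24 in lean mice (adjusted p = 0.250), and the difference between the diets was 2.17 for Il1b (adjusted p = 0.0653).

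Among 22 receptors and transcription factors of the pathway, 3 rose in lean mice (Il1r1 0.78, Tnfrsf1b 0.67 and Stat3 0.30 on the log2 scale) and 10 rose and 3 fell in obese mice, with medians of 0.28 and 0.12. Over all genes 3.27% rose in lean mice, and 26.8% rose and 27.7% fell in obese mice. The accessory interleukin-1 receptor Il1rap (1.99, adjusted p = 8.08e-05) and Socs3, a STAT3 target that damps cytokine signaling (1.63, adjusted p = 0.000103), rose the most in obese mice. Cebpa, a C/EBP factor of adipocytes, fell (-1.11, adjusted p = 0.00230), and Cebpb rose (0.72, adjusted p = 0.000316). Cebpb was the gene of this list called in the obese minus lean difference (0.87, adjusted p = 0.0396). Il6st, the shared receptor chain of interleukin-6 type cytokines and the most abundant gene of the list (514 CPM), fell by 0.41 in obese mice (adjusted p = 0.0446).

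Of 11 receptors that bind the encoded proteins, 2 rose in lean mice and 5 rose and 2 fell in obese mice, with medians of 0.55 and 0.60, beside the same 3.27%, 26.8% and 27.7% of all genes. Fpr2, the formyl peptide receptor to which serum amyloid A binds, rose in both (log2 2.31, adjusted p = 0.0241 in lean; 3.46, adjusted p = 2.82e-05 in obese), from 0.535 ± 0.403 (SD, n = 6) to 6.09 ± 2.06 (n = 6) CPM in obese mice. Tlr2 also rose in both (0.92, adjusted p = 0.00292; 1.19, adjusted p = 1.08e-05), and Fpr1 in obese mice (3.91, adjusted p = 0.000260). Of the lipocalin 2 receptors, Slc22a17 fell in obese mice (-1.24, adjusted p = 0.000597) and Lrp2, or megalin, rose (3.62, adjusted p = 0.000182), with 6.21, 35.6 and 102 CPM (lowest, median, highest) beside the tumor in obese mice and at most 0.909 CPM in lean pads. Lrp2 was high in the pads in which the germline and embryonic genes were high, and the part of tumor tissue in its values was not tested. The scavenger receptor Cd36, the most abundant of this list at 3104 CPM, fell by 1.05 in obese mice (adjusted p = 0.00718). P2rx7 was the remaining gene that rose (0.60, adjusted p = 0.00129). None of the 11 was called in the difference between the diets, where edgeR gave a median of -0.14.

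**Figure D5:**
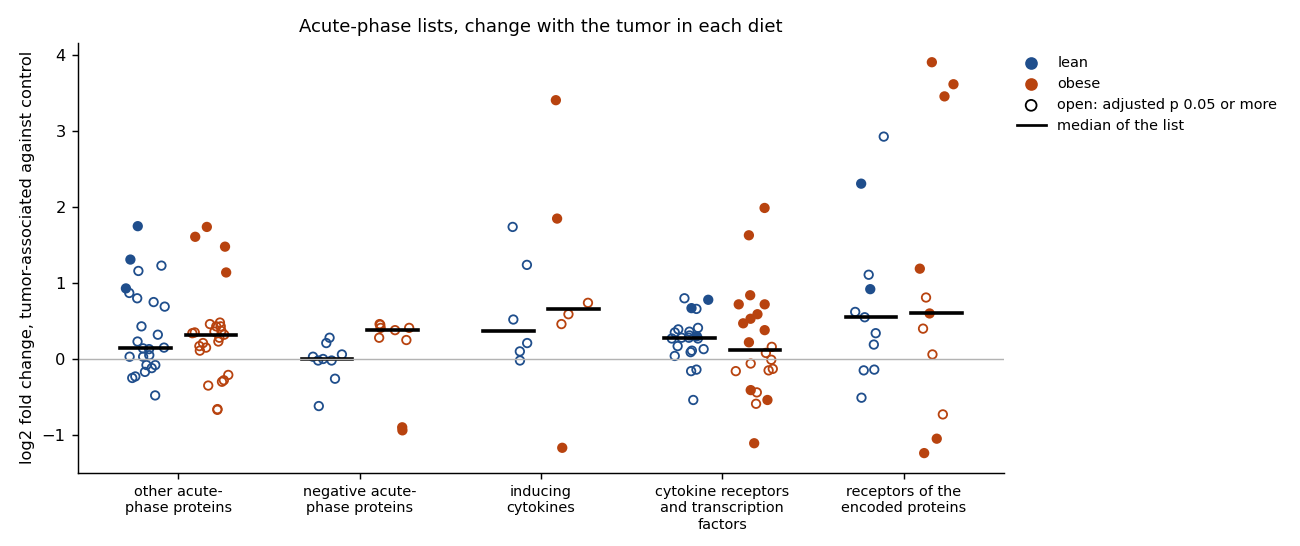
Fitted log2 fold change with the tumor of each tested gene of the 5 pathway lists, in lean and in obese mice; filled points have an adjusted p under 0.05, and black bars are the median of the list. Most other acute-phase proteins and most cytokine receptors and transcription factors lie within 1 of 0, and the filled points above 3 in obese mice are Il1b, Fpr1, Lrp2 and Fpr2.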

How the data were processed

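The authors trimmed the reads with prinseq, mapped them with STAR 2.4.0f to mm10 and counted them per gene symbol with HTSeq; raw counts were deposited, with no normalization, and the strand setting is not given in the sources used here. The 5 HTSeq total lines were left out (38.5% to 48.8% of reads lay on no gene, 15.1% to 18.9% were not unique). Counts of 14458 genes that passed filterByExpr entered a single quasi-likelihood fit of the 4 groups with TMM factors and no block (edgeR 4.0.16, R 4.3.3) with Benjamini-Hochberg adjustment over all genes at 0.05. SE is the log2 fold change over the root of F. CPM (counts per 1000000) were TMM-scaled; 2 was the prior count on the log2 scale. Replicates are mice, and pads of 1 mouse are paired: their deviations from the group means correlated with a median r of 0.508 in lean (5 of 5 pairs over 0.1) and 0.168 in obese mice (4 of 6). The fits were tested on simulated data whose libraries were drawn independently, so that test cannot bear on the pairing of pads. Positions are from GENCODE M21 on GRCm38, windows from RefSeq (found for 5 of 7 genes). Levels per kb use the longest annotated coding transcript.

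The members and lists were chosen with earlier results of these data known. Named were all members, up to 4 called genes and the most abundant gene of each pathway list, the leading markers, and 3 genes most like each member; other named genes were chosen after their values were seen. Alternatives were DESeq2 1.42.0, upper-quartile scaling, no filter, at least 10 counts in every library, only the groups compared, a block for the mouse and leaving out libraries singly. Chosen after seeing the data were the hepatocyte covariate and the fits that leave out libraries by their markers.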

Additional observations from a re-analysis of the deposited data

Results flagged for a closer look

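Within each group, the highest and the lowest library of each gene were compared with the nearest other library by Dixon's ratio of that gap to the whole range, on log2 CPM. Of 28 groups of values, 3 stood out, and chance alone gives about 1 in 20 where values are normally distributed. The low counts of Saa1, Saa2 and Orm2 are not. Saa2 in lean control library 9 had a ratio of 1.0, with 5 counts (0.848 CPM) where the 4 other libraries had 0. With those tied at 0, any count above 0 gives that ratio. Hp in lean control library 9 had a ratio of 0.76, at 467 CPM, the highest of its group. Hp in obese tumor-associated library 4 had a ratio of 0.63, at 422 CPM, the lowest of its group.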

How the results depend on the processing

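Of 622 log2 fold changes of the 4 tested genes under other settings, 579 kept their direction and their side of the threshold, 17 lost a call, 24 gained one and 2 changed sign, those of Lcn2 in lean mice (-0.069 without lean tumor-associated library 9 and -0.044 without the libraries rich in hepatocyte markers). That of Lcn2 in lean mice ran from -0.069 to 0.184 with 1 library left out. With the mouse as a replicate block, Hp in lean mice was 1.58 (adjusted p = 0.0606), 0 genes of the 7 were called there, and no other call on the 4 genes changed.

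In lean mice 2 of the 4 were called by DESeq2 and 0 without the hepatocyte libraries. A minimum of 10 counts in every library removed Saa3 and left 1 call between control pads and 1 between tumor-associated pads. The hepatocyte covariate gave 1 call in the difference. With 1 library left out, calls on the 4 genes ran from 0 to 2 in lean mice, 3 to 4 in obese mice, 1 to 3 between control pads, 2 to 3 between tumor-associated pads and 0 to 1 in the difference.

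Calls over all genes in lean mice (605) were 913 with DESeq2, 1437 with those groups alone, 55 without the hepatocyte libraries, 1175 without obese tumor-associated libraries 0 and 4, and 183 to 952 with 1 library left out. Between control pads (2468) they were 913 without the hepatocyte libraries and 1606 to 3428 with 1 left out. In the difference (711) they were 2364 with DESeq2, 18 with no filter, 1926 with the covariate, 111 without the hepatocyte libraries, 199 without obese tumor-associated libraries 0 and 4, and 1 to 3568 with 1 left out. In obese mice and between tumor-associated pads they ran from 6915 to 8403 and from 5902 to 7464. Upper-quartile scaling gave 382 higher and 199 lower in lean mice (65.75% higher, against 78.18%) and 1068 higher and 1446 lower between control pads (42.48% against 55.92%); DESeq2 gave 622 higher and 291 lower in lean mice (68.13%). The cause was not tested, beyond the fewer libraries or genes that some settings leave. Saa1, Saa2 and Orm2 had too few counts to pass the filter.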
